A study of Mus musculus with 8 samples.

Results

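The integrin alpha chains measured here are 10 genes, *Itga1*, *Itga2*, *Itga3*, *Itga5*, *Itga6*, *Itga7*, *Itga9*, *Itga10*, *Itga11* and *Itgav*, chosen as the rows of the RNA-Seq count table that carry these names. They are 10 of the 54658 genes in the table and 10 of its 18 integrin alpha chains, and all 10 were among the 14404 genes tested. Primary articular chondrocytes of the mouse received IL-1β (1 ng/mL for 24 h, n = 4) or vehicle (n = 4) before RNA-Seq. All cells came from the femoral head cartilage of wild-type mice aged 3 weeks and were cultured in medium with fetal bovine serum, and IL-1β, a proinflammatory cytokine tied to osteoarthritis, was the only agent that differed. The comparison asks how the chondrocyte transcriptome responds to inflammation. Neither the labels nor the methods state how many mice were pooled or whether the samples are separate cultures, so p-values measure the spread between these samples, which may be technical.

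Total counts per sample were 10992355 to 17456063, and 3 counts, the smallest number taken as detection, correspond to a CPM of 0.173 to 0.270. CPM stands here for counts scaled to the library total and corrected by TMM factors. All 10 chondrocyte markers examined passed the CPM filter, and their summed level was 6137 to 6663 CPM with IL-1β and 16980 to 17565 CPM with vehicle. Among markers of other cells, *Cdh5*, *Tie1* and *Cldn5* of 6 for endothelium and *Adgre1*, *Fcgr1* and *Itgam* of 8 for macrophages had at most 3 reads in every sample. So did *Myod1*, *Myf5*, *Pax7* and *Ckm* of 6 for skeletal muscle. The other endothelial markers, *Pecam1*, *Tek* and *Kdr*, reached 9, 10 and 4 reads. The endothelial list summed to 0.649 to 1.25 CPM with IL-1β and 0.751 to 1.07 CPM with vehicle. Of the other muscle markers, *Acta1* had 3 to 9 reads with IL-1β and 10 to 15 with vehicle, and *Myh3* at most 5. Of 8 macrophage markers, 3 were tested, 2 rose and 1 fell, beside 20.4% and 19.8% of all genes tested. The list summed to 29.9 to 33.6 CPM with IL-1β and 14.9 to 16.8 CPM with vehicle. *Cd14* (3.85 CPM in vehicle and 14.0 CPM in IL-1β samples) and *Cd68* (9.48 and 14.99 CPM) carried this sum, *Lyz2* fell from 1.86 to 1.24 CPM, and *Ptprc* and *Csf1r* overlapped between the groups. In bulk RNA, fewer cells of a type and less RNA per cell cannot be told apart.

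Integrins are receptors of an alpha and a beta chain that span the plasma membrane, bind the extracellular matrix outside and couple to the actin cytoskeleton through talin and kindlin inside. The alpha chain largely sets the ligand. The chains α1, α2, α10 and α11 bind collagens through an inserted domain, α3, α6 and α7 bind laminins, α5 and αv read the RGD motif of fibronectin, vitronectin and related proteins, and α9 binds tenascin-C and osteopontin. With the exception of αv, which pairs with several beta chains, these members pair with β1, and α6 also with β4. In cartilage, α10β1 is the characteristic collagen II receptor and α5β1 the main fibronectin receptor of chondrocytes.

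With IL-1β, 6 of the 10 alpha chains fell at an adjusted p under 0.05 and 3 rose, whereas 19.8% of all genes tested fell and 20.4% rose. *Itga6*, *Itga7*, *Itga10* and *Itga11* were differentially expressed genes (DEGs), with a log2 fold change below -1 and an adjusted p under 0.05, as were 2.35% of all genes tested in that direction. Tested by glmTreat for a change beyond 2-fold, none of these 4 was called (adjusted p = 0.0694 for *Itga6*, 0.114 for *Itga10*, 0.258 for *Itga7* and 1 for *Itga11*), whereas 437 of all genes were. No alpha chain was a DEG in the other direction, in which 2.86% of genes were. The median log2 fold change was -0.50 over the 10 members and -0.0012 over all genes tested. In the same 6 members every IL-1β sample was below every vehicle sample, which held for 18.2% of genes tested, and in the same 3 every IL-1β sample was above, which held for 18.7%. *Itga3* was the member that did not pass the test.

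**Figure D1:**
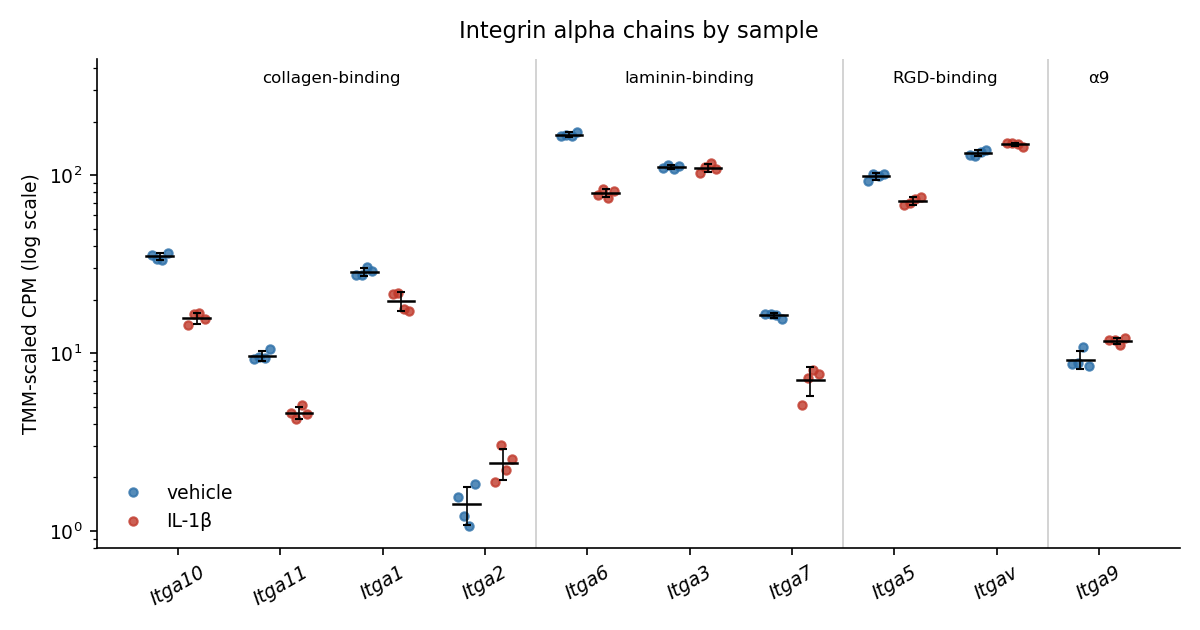
TMM-scaled CPM (log axis) of the 10 alpha chains in each vehicle (blue) and IL-1β (red) sample, grouped by ligand, with the mean and SD (n = 4) in black. *Itga6* separates the groups most visibly among the abundant chains, at 166 to 176 CPM with vehicle and 74.7 to 83.7 CPM with IL-1β, whereas the *Itga3* samples lie on top of each other.

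Sequences of the collagen-binding members are shown first, because these 4 genes share a ligand class and moved in different directions. *Itga1* (chr13:114953096-115101964, minus strand) and *Itga2* (chr13:114833081-114932100, minus strand) are neighbours in GRCm38 with 20995 bases between them, whereas *Itga10* (chr3:96645584-96664519) and *Itga11* (chr9:62677826-62783982) lie on the plus strand of other chromosomes. The RefSeq promoter windows (GRCm38.p6, 5′ to 3′ on the gene's strand) run from 250 bases before the transcription start to 50 after it. Capitals mark matches to any of 8 motifs.
Itga10, chr3:96645334-96645633, plus strand: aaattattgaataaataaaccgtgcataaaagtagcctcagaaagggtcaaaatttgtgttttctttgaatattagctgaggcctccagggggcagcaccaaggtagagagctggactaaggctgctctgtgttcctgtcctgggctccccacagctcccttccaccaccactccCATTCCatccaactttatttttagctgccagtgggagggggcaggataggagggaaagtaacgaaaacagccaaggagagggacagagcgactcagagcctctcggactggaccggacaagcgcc
Itga11, chr9:62677605-62677904, plus strand: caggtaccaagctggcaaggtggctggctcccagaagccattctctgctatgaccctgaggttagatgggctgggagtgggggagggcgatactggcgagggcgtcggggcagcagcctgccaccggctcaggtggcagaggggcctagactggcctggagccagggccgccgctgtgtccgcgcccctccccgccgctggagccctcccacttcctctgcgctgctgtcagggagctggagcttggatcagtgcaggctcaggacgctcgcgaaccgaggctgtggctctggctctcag
Itga1, chr13:115101915-115102214, minus strand: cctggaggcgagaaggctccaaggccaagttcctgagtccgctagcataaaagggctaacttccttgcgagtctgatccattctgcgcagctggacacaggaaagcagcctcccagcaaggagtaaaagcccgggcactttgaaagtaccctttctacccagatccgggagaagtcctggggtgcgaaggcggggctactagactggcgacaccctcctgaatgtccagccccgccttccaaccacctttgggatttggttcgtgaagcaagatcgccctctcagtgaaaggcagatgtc
Itga2, chr13:114932051-114932350, minus strand: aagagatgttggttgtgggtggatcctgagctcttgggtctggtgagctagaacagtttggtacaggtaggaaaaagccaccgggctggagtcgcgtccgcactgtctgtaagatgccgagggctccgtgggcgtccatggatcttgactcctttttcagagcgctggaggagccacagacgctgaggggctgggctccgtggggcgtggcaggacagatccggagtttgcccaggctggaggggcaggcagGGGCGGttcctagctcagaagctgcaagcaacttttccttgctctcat

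The motifs, searched on both strands, were TGANTCA of AP-1, in 7.81% of the 32851 windows of all genes, GGGCGG of SP1, in 35.7%, CCGGAAG of ETS factors, in 8.86%, GTCTAGAC of SMAD factors, in 0.213%, GGAATG of TEAD factors, in 14.7%, and TATAAA of the core promoter, in 13.6%. NF-κB motifs, searched by a longer degenerate pattern, occurred in 8.46% and the SRF CArG box in 1.63%. *Itga10* held a single TEAD match, on the minus strand and starting 75 bases before the start site, and *Itga2* held a single SP1 match just after it. None of the letters searched occurred in the windows of *Itga1* and *Itga11*. GC content was 51.0% for *Itga10*, 59.3% for *Itga2*, 56.7% for *Itga1* and 68.0% for *Itga11*, against a median of 52.7% over all windows. Outside this class, windows were matched for *Itga3*, *Itga5*, *Itga9* and *Itgav*, which makes 8 of the 10 members. The *Itga3* windows held AP-1, NF-κB, ETS and SP1 matches, and the *Itga9* window held an AP-1 match. In the windows of *Itga5* and *Itgav*, SP1 matches alone occurred. Whether any of these matches is bound was not tested. *Itga6* and *Itga7* were not matched.

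The study centres on miR-146a-5p, so the 3′ UTRs of the members were searched for its seed. The study's own target prediction took conserved sites and included matches to 6 bases. Conservation was not used here and such short matches are given apart, so the 2 searches are not alike. The mature sequence from RefSeq (GRCm38.p6, chr11:43374435-43374456, minus strand) is given with the seed, bases 2 to 8, in capitals.
miR-146a-5p: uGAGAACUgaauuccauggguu
The match to the whole seed, AGTTCTC, or to its first 6 bases followed by A, occurred in none of the 10 members, over all 22 of their coding transcripts with a 3′ UTR. By the same search of the longest coding transcript, 18.6% of 11838 tested genes (2202) had such a site. Shorter matches to 6 bases of the seed (capitals), searched in the longest coding transcript, occurred in *Itga1*, *Itga2*, *Itga5* and *Itga9*. The share of all genes with such a short match was not counted, so nothing is read from these. The *Itga1* 3′ UTR had 6994 bases, against a median of 1003 over the genes searched. *Itga2* and *Itga9*, which also hold short matches, rose with IL-1β. Those of the members that fell, *Itga1* and *Itga5*, are printed with 11 bases on each side.
Itga1, chr13:114959621-114959626, minus strand: tggggtgaaagGTTCTCccagttcaaat
Itga1, chr13:114955691-114955696, minus strand: cttgggtgactGTTCTCtgtagttctgt
Itga5, chr15:103344938-103344943, minus strand: atccagttgtgGTTCTCtgggccgggca
The DEGs *Itga6*, *Itga7*, *Itga10* and *Itga11* held no match of either kind in the 3′ UTR searched.

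Among the collagen receptors, *Itga10* and *Itga11* each fell more than 2-fold, *Itga1* fell by less, and the scarce *Itga2* rose. *Itga10*, the cartilage collagen II receptor chain, was at 35.6, 34.0, 33.6 and 36.7 CPM in vehicle replicates 1 to 4 and at 14.3, 16.5, 16.7 and 15.5 CPM in the IL-1β replicates. The groups did not overlap, and the spread within each was small beside the gap. The level was 2.20-fold lower with IL-1β (log2 fold change -1.14, SE 0.06, adjusted p = 2.34e-15 by edgeR). *Itga10* shares 33.5% of its exon bases with *Gm42957*, a gene model on the same strand that had 0 to 9 counts per sample, so that reads of the shared exons may not have been counted.

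*Itga11*, a fibrillar collagen receptor chain best known from fibroblasts, was at 9.23, 9.53, 9.41 and 10.6 CPM with vehicle and at 4.60, 4.25, 5.11 and 4.54 CPM with IL-1β. Its groups did not overlap either, and the level was 2.08-fold lower (log2 fold change -1.06, SE 0.11, adjusted p = 4.94e-09). The 95% interval of this change, -1.29 to -0.83, includes a log2 fold change of -1. Of 6 markers of synovial fibroblasts, 5 were tested and 4 rose, beside 20.4% of all genes tested. The list summed to 2121 to 2241 CPM with IL-1β and 962 to 1013 CPM with vehicle. Most of this sum was *Prg4* (lubricin, 827 to 880 CPM in vehicle and 1955 to 2070 CPM in IL-1β samples), which also stands in the chondrocyte list. The other genes that rose were *Pdpn* (a mean of 5.83 and 28.0 CPM in vehicle and IL-1β samples), *Pdgfra* (27.6 and 41.2 CPM) and *Cd34* (ranges of 9.52 to 11.1 and 16.5 to 18.6 CPM). The remaining markers of the list did not rise. *Col1a1* did not pass the test (log2 fold change -0.10, adjusted p = 0.0761), and its means were 90.1 (vehicle) and 83.9 CPM (IL-1β). *Thy1* was below the CPM filter, with means of 0.434 (vehicle) and 0.175 CPM (IL-1β). Both overlapped between the groups. The part of these markers in the *Itga11* result was not tested.

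*Itga1*, whose chain prefers collagens IV and VI, was at 27.5, 27.3, 30.3 and 29.0 CPM with vehicle and at 21.5, 21.9, 17.7 and 17.3 CPM with IL-1β. All IL-1β samples were lower, but they lay in a pair near 22 CPM and a pair near 17 CPM. The level was 1.46-fold lower (log2 fold change -0.55, SE 0.07, adjusted p = 2.05e-07). *Gm49395*, on the same strand, shares 3.68% of the *Itga1* exon bases and had 3 to 10 counts per sample. *Itga2*, which encodes a collagen I receptor chain prominent in epithelium and platelets, was read 27, 21, 15 and 28 times with vehicle and 21, 42, 37 and 36 times with IL-1β. These counts correspond to 1.56, 1.21, 1.07 and 1.84 CPM with vehicle and 1.89, 3.03, 2.20 and 2.55 CPM with IL-1β. The lowest IL-1β sample was barely above the highest vehicle sample. *Itga2* was 1.70-fold higher (log2 fold change 0.77, SE 0.22, adjusted p = 0.0051), with a 95% interval of 0.32 to 1.21.

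Among the laminin receptors, *Itga6* and *Itga7* each fell more than 2-fold and *Itga3* did not pass the test. *Itga6* (chr2:71745616-71858416, plus strand) encodes the chain of the α6β1 and α6β4 laminin receptors. It was at 166, 168, 166 and 176 CPM with vehicle and at 77.6, 83.7, 74.7 and 82.1 CPM with IL-1β, so that the lowest vehicle sample was far above the highest IL-1β sample. The level was 2.13-fold lower (log2 fold change -1.09, SE 0.04, adjusted p = 3.34e-20), with a 95% interval of -1.17 to -1.02.

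*Itga7* (chr10:128933818-128958282, plus strand), the laminin receptor chain typical of muscle, was at 16.7, 16.6, 16.4 and 15.6 CPM with vehicle and at 5.14, 7.21, 8.08 and 7.66 CPM with IL-1β. The vehicle samples lay close together and the IL-1β samples were more spread, with replicate 1 the lowest. The level was 2.29-fold lower (log2 fold change -1.19, SE 0.10, adjusted p = 7.18e-11), the largest fold among the 10 members, and the 95% interval was -1.40 to -0.99. Skeletal muscle markers summed to 0.360 to 0.713 CPM with IL-1β and 0.854 to 1.43 CPM with vehicle. Markers of mural and smooth muscle cells summed to 390 to 440 CPM with IL-1β and 794 to 867 CPM with vehicle, but nearly all of this was *Cspg4* (386 to 435 and 780 to 850 CPM), so the sum is close to the level of 1 gene. *Acta2*, the other of the 2 tested, fell from 14.4 to 3.47 CPM, and *Myh11*, *Des*, *Rgs5* and *Cnn1* were below 1 CPM in every sample. The part of such cells in the *Itga7* result was not tested.

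*Itga3* (chr11:95044474-95076801, minus strand), whose chain pairs with β1 as a receptor for epithelial and basement membrane laminins, was at 109, 114, 108 and 113 CPM with vehicle and at 103, 112, 117 and 108 CPM with IL-1β. The groups overlapped throughout. The log2 fold change was -0.01 (SE 0.04, adjusted p = 0.875), with a 95% interval of -0.08 to 0.07.

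Of the RGD receptors, *Itga5* fell and *Itgav* rose, both by less than the DEG threshold. *Itga5* (chr15:103344286-103366763, minus strand), the fibronectin receptor chain, was at 92.8, 101.5, 99.0 and 101.9 CPM with vehicle and at 68.1, 69.7, 73.4 and 75.9 CPM with IL-1β. The groups did not overlap, and the level was 1.37-fold lower (log2 fold change -0.46, SE 0.04, adjusted p = 2.22e-10). *Itgav* (chr2:83724397-83806916, plus strand), the αv chain of vitronectin receptors and of activators of latent TGF-β, was at 130.5, 127.9, 134.9 and 139.1 CPM with vehicle. With IL-1β it was at 152.1, 151.4, 149.7 and 144.9 CPM, all above the vehicle samples by a small margin. The rise was 1.12-fold (log2 fold change 0.17, SE 0.03, adjusted p = 9.04e-05). An opposite-strand gene, *Gm13684*, covers 5.90% of the *Itgav* exons with 6 to 19 counts per sample.

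*Itga9* (chr9:118606690-118901003, plus strand), the chain that binds tenascin-C and osteopontin, was at 8.71, 8.78, 10.8 and 8.48 CPM with vehicle and at 11.8, 11.9, 11.05 and 12.2 CPM with IL-1β. Vehicle replicate 3 stood apart from the other vehicle samples and came close to the lowest IL-1β sample. *Itga9* was 1.28-fold higher (log2 fold change 0.36, SE 0.10, adjusted p = 0.0035).

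**Figure D2:**
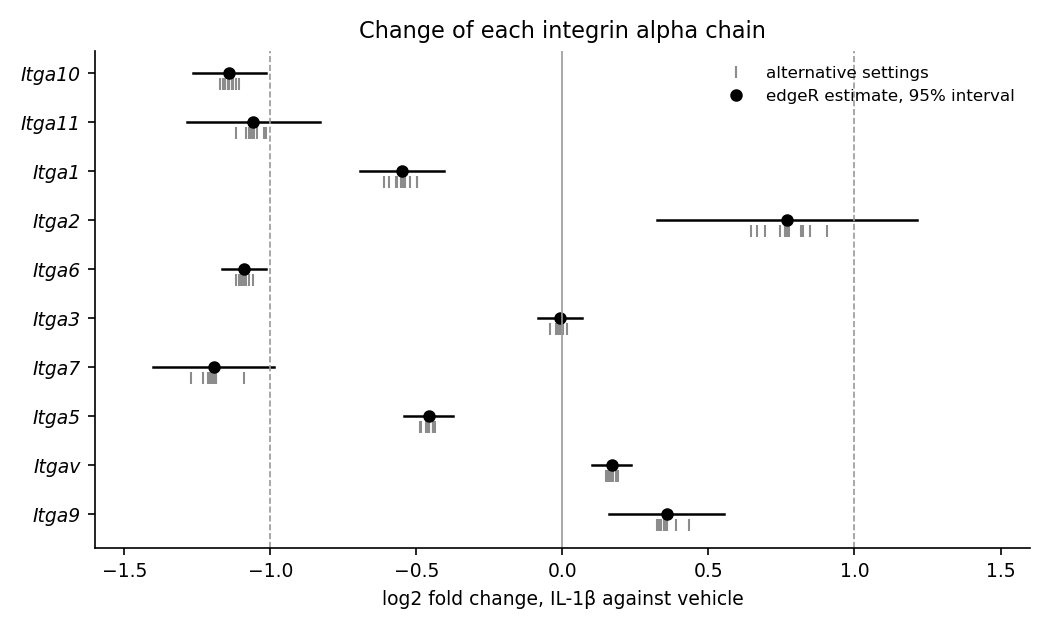
Log2 fold change of each alpha chain, IL-1β against vehicle (x axis), with the edgeR estimate and its 95% interval in black and the estimates under 13 alternative settings as grey ticks; dashed lines mark the DEG threshold. The estimates of *Itga10*, *Itga11*, *Itga6* and *Itga7* lie beyond -1 in every setting, that of *Itga3* sits at 0, and *Itga2* has the widest interval, 0.32 to 1.21.

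Levels of different genes were compared per length, as CPM per kilobase of the deposited gene length (RPKM). For each member this length equalled the merged exon bases of all annotated transcripts, 9025 for *Itga6*, 5710 for *Itga3* and 4933 for *Itga5*. It can exceed the length of an expressed transcript, so the order of levels depends on it. By mean CPM with vehicle, *Itga6* (169) led, followed by *Itgav* (133), *Itga3* (111) and *Itga5* (98.8). With vehicle, *Itga5* (20.02 ± 0.85 RPKM, SD, n = 4), *Itga3* (19.4 ± 0.44) and *Itga6* (18.7 ± 0.53) led, and the ranges of neighbours in this order overlapped. *Itgav* followed at 12.4 ± 0.46 RPKM and *Itga10* at 6.74 ± 0.28 RPKM, the most abundant collagen receptor chain. Reads of the *Itga10* exons shared with *Gm42957* may not have been counted, so its RPKM may be too low. This would carry into the sums, shares and ratios that hold *Itga10*. *Itga7* (2.02 ± 0.058 RPKM) and *Itga11* (1.89 ± 0.12) overlapped, and *Itga1* (1.53 ± 0.076), *Itga9* (1.19 ± 0.14) and *Itga2* (0.199 ± 0.049) came last.

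By mean CPM with IL-1β, *Itgav* (149.5) led, followed by *Itga3* (110.1), *Itga6* (79.5) and *Itga5* (71.8). In RPKM, the shared lead of 3 chains seen with vehicle was gone. *Itga3* stood alone at 19.3 ± 1.0 RPKM, followed by *Itga5* (14.5 ± 0.71) and *Itgav* (13.9 ± 0.30), whose ranges overlapped, and then by *Itga6* (8.81 ± 0.46). *Itga10* was at 3.04 ± 0.21 RPKM, still the highest of the collagen receptor chains per length. By mean CPM with IL-1β, *Itga1* (19.6) was above *Itga10* (15.8). *Itga9* (1.53 ± 0.064 RPKM) was above *Itga1* (1.05 ± 0.13), *Itga11* (0.901 ± 0.069) and *Itga7* (0.868 ± 0.16), 3 chains in which neighbours overlapped, and *Itga2* was last at 0.339 ± 0.069 RPKM.

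**Figure D3:**
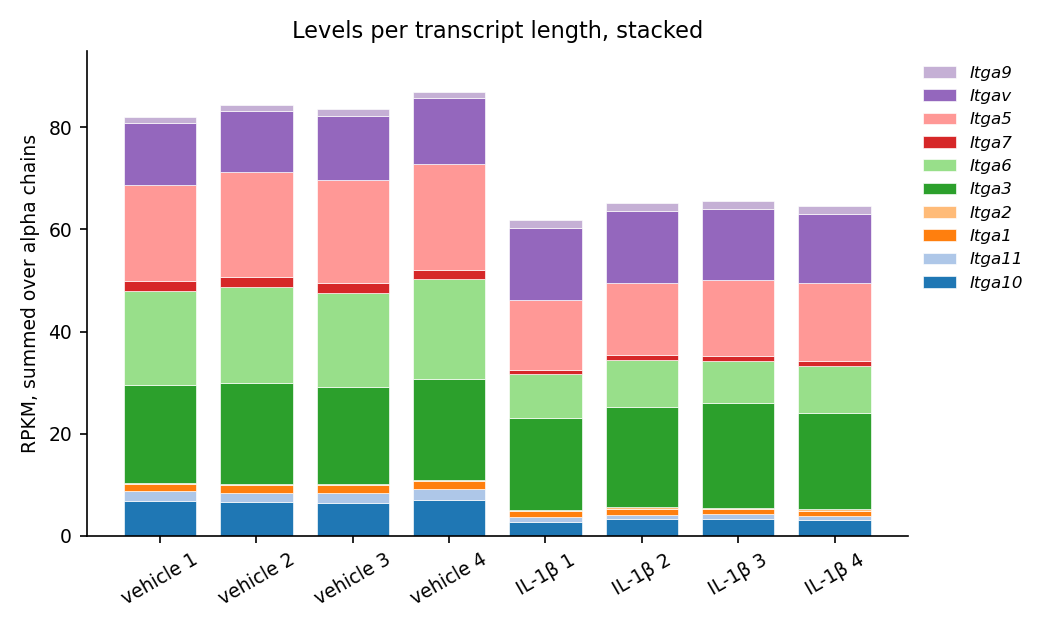
RPKM of the 10 alpha chains stacked in each sample, vehicle on the left and IL-1β on the right. The summed level was 82.1 to 86.8 RPKM in the vehicle samples and 61.9 to 65.5 RPKM in the IL-1β samples, with *Itga6* (light green) the segment that shrank most.

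Summed over members, the alpha chains were at 84.2 ± 2.0 RPKM with vehicle and 64.3 ± 1.7 RPKM with IL-1β (SD, n = 4). The collagen receptor chains summed to 10.4 ± 0.42 and 5.33 ± 0.26 RPKM, which were 12.3% and 8.30% of all 10 members. The laminin receptor chains summed to 40.2 ± 0.83 and 29.0 ± 1.2 RPKM, or 47.8% and 45.0%. Since *Itga5* and *Itgav* moved in opposite directions, their sum differed less, at 32.4 ± 1.1 and 28.5 ± 0.44 RPKM, and their share was 38.5% with vehicle and 44.3% with IL-1β. For each RPKM of *Itgb1*, the common partner, there were 0.599 ± 0.011 RPKM of members other than *Itgav* with vehicle and 0.446 ± 0.028 with IL-1β.

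The ratio of a pair of chains within a sample does not depend on how libraries are scaled, and 5 pairs within ligand classes were compared by an exact permutation test, two-sided, whose smallest p for 4 against 4 samples is 0.0286. Ratios were of RPKM, so each value depends on the gene lengths, whereas the difference between groups does not. The ratio of *Itga6* to *Itga3* was 0.964 with vehicle and 0.457 with IL-1β (difference of log2 ratios -1.08, exact p = 0.0286, adjusted over the 5 ratios p = 0.0476). The ratio of *Itga10* to *Itga1* was 4.40 with vehicle and 2.90 with IL-1β (-0.60, exact p = 0.0286, adjusted p = 0.0476). The ratio of *Itga5* to *Itgav* was 1.62 with vehicle and 1.04 with IL-1β (-0.63, exact p = 0.0286, adjusted p = 0.0476). In these 3 pairs every IL-1β sample was below every vehicle sample. The ratios use the same counts as the tests of single genes, so they restate those unequal changes and are no separate support. The members that form the pairs were chosen with earlier results of these data known. The adjusted p of 0.0476 rests on 3 of the 5 pairs being at the smallest p.

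The other pairs, *Itga11* to *Itga10* and *Itga6* to *Itga7*, overlapped between groups. Their log2 ratios differed by 0.08 (exact p = 0.314, adjusted p = 0.393) and 0.15 (exact p = 0.457, adjusted p = 0.457), and with 1 sample left out the differences ranged from 0.04 to 0.14 and from 0.01 to 0.25. For *Itga11* to *Itga10*, 1 sample decided the call: without IL-1β replicate 2 the difference was 0.14 (exact p = 0.0286, adjusted p = 0.0357) and the groups no longer overlapped. This does not show that the chains of these pairs moved by the same amount.

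**Figure D4:**
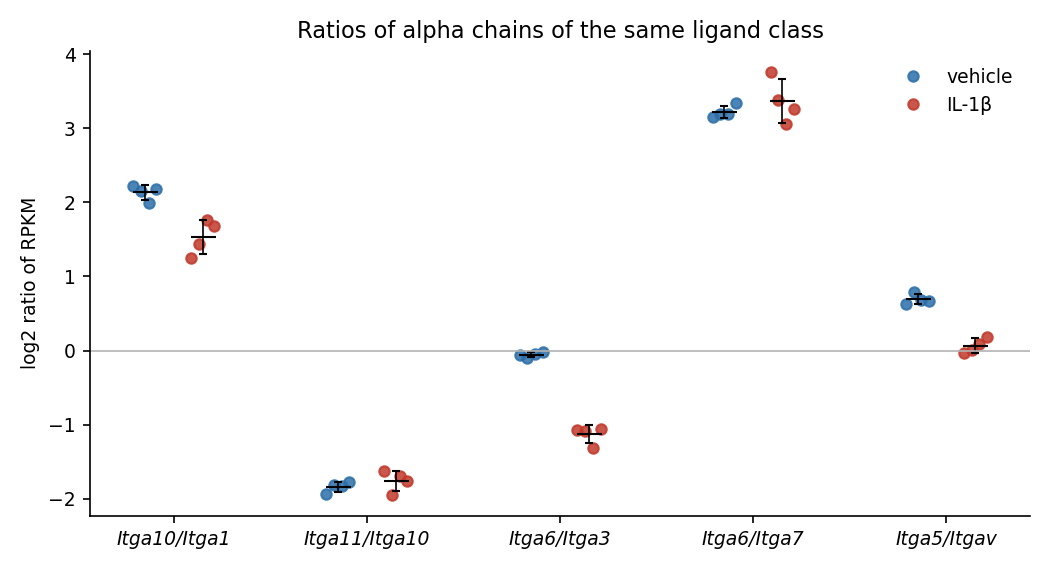
Log2 ratio of RPKM for 5 pairs of alpha chains in each vehicle (blue) and IL-1β (red) sample, with the mean and SD (n = 4). The groups separate for *Itga10*/*Itga1*, *Itga6*/*Itga3* and *Itga5*/*Itgav* and overlap for *Itga11*/*Itga10*, where IL-1β replicate 2 is the lowest, and *Itga6*/*Itga7*; for *Itga6*/*Itga3* the vehicle samples lie between -0.09 and -0.02 and the IL-1β samples between -1.31 and -1.06.

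The other 8 alpha chains of the table were scarce. *Itga2b*, the platelet chain αIIb, was the 1 that passed the CPM filter, at a mean of 3.43 ± 0.70 CPM in vehicle and 4.36 ± 0.58 CPM in IL-1β samples (SD, n = 4), a difference that did not pass the test (log2 fold change 0.35, adjusted p = 0.0828). The leukocyte chains *Itgam* and *Itgax* had at most 3 reads in any sample, and *Itga4*, *Itga8*, *Itgad*, *Itgae* and *Itgal* at most 7.

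Of the 8 beta chains, 6 were tested, of which 4 fell and 1 rose, where 19.8% of all genes tested fell and 20.4% rose. *Itgb1*, the main partner of the members, fell by a small amount, from 489 ± 6.3 to 461 ± 16 CPM (log2 fold change -0.08, SE 0.03, adjusted p = 0.032). *Itgb5*, a partner of αv, fell from 251 ± 5.8 to 201 ± 7.2 CPM (log2 fold change -0.32, adjusted p = 2.96e-09). *Itgb4*, a partner of α6, fell from 6.85 ± 0.78 to 4.58 ± 0.88 CPM (-0.58, adjusted p = 0.000832). *Itgb3*, another partner of αv, fell from 1.74 ± 0.36 to 1.09 ± 0.23 CPM (-0.68, adjusted p = 0.0282). Its groups overlapped, at 21 to 32 reads with vehicle and 13 to 19 with IL-1β. *Itgb8* did not pass the test (log2 fold change 0.04, adjusted p = 0.916). *Itgb7* was the only DEG among the beta chains, and rose from 10.5 ± 0.60 to 25.8 ± 0.51 CPM (log2 fold change 1.30, SE 0.07, adjusted p = 3.48e-15). The alpha chains known to pair with β7, α4 and αE, had 0 to 5 reads of *Itga4* and 0 to 7 reads of *Itgae* per sample. *Itgb2* and *Itgb6* did not pass the CPM filter.

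Most genes of collagens, the ligands of α1, α2, α10 and α11, fell. Of 14 collagen ligand genes, all tested, 11 fell and 2, *Col4a1* and *Col4a2* of basement membrane, rose, with a median log2 fold change of -0.999 beside -0.0012 over all genes. The DEGs were *Col1a2*, *Col2a1*, *Col6a3*, *Col9a1*, *Col9a3*, *Col11a1* and *Col11a2*. Among all genes tested, 19.8% fell, 20.4% rose and 2.35% were DEGs in the lower direction. *Col2a1*, the main fibrillar collagen of cartilage, went from 11191 ± 195 CPM to 2844 ± 117 CPM (log2 fold change -1.98), beside -1.14 for *Itga10*. The chondrocyte markers, which hold *Col2a1*, *Col9a1* and *Col11a1*, fell in 9 of 10 cases, and their part in the receptor result was not tested.

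Laminin genes were split in direction. Of 10, 8 were tested, 4 fell, 2 rose and none was a DEG, with a median log2 fold change of -0.13. Over all genes tested, 19.8% fell and 20.4% rose, and 2.35% and 2.86% were DEGs in these directions. *Lamc1*, the most abundant and the γ1 subunit of most laminins, had 177 ± 2.5 CPM in vehicle and 181 ± 5.3 CPM in IL-1β samples (log2 fold change 0.04, adjusted p = 0.339). Among the RGD and other ligands, 12 of the 14 genes in the table were tested, 7 fell and 4 rose. The DEGs were *Ibsp* (bone sialoprotein, log2 fold change -3.69), *Thbs1* (thrombospondin 1, -1.66), *Ctgf* (-1.39) and *Tnc* (tenascin-C, a ligand of α9, -1.19). *Spp1* (osteopontin, the other ligand of α9 named above) rose from 1374 ± 49 to 2394 ± 64 CPM (log2 fold change 0.80, adjusted p = 2.23e-19), and *Fn1* (fibronectin, the ligand of α5) fell from 39401 ± 1444 to 26811 ± 646 CPM (-0.56, adjusted p = 3.28e-19). Unlike the DEGs, these 2 were named after their values were seen. *Ibsp* also stands in the list of osteoblast and osteoclast markers, of which 3 of 7 were tested and all 3 fell.

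Inside the cell, 26 of 29 genes of adhesion adaptors and kinases were tested. Of these, 8 fell, 9 rose and none was a DEG, with a median log2 fold change of 0.03. Among all genes tested, 19.8% fell and 20.4% rose. DEGs were 2.35% of all genes in the lower and 2.86% in the higher direction, so a short list may hold none. *Flna*, the most abundant and an actin crosslinker that binds beta chain tails, rose from 1339 ± 15 to 1660 ± 25 CPM (log2 fold change 0.31, adjusted p = 5.85e-11). Of 6 tetraspanin partners, 1 fell and 3 rose, among them *Cd81*, the most abundant (log2 fold change 0.14, adjusted p = 0.0015).

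**Figure D5:**
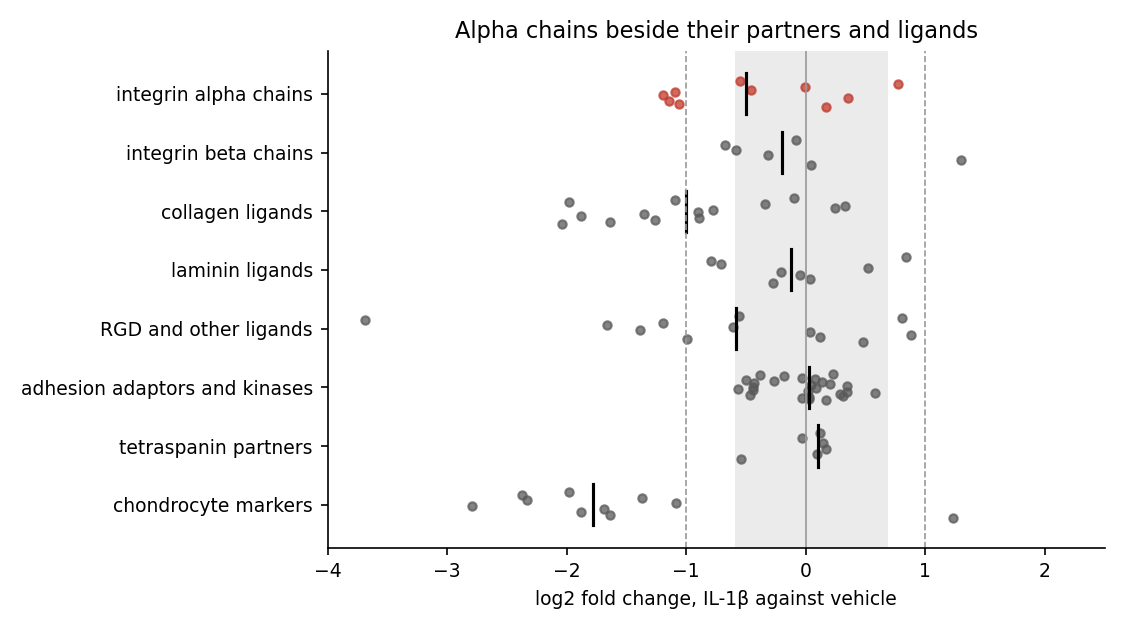
Log2 fold change, IL-1β against vehicle, of every tested gene in each list (points), with the list's median as a black bar; the grey band spans the 5th to 95th percentile of all genes tested, -0.59 to 0.68, and dashed lines mark the DEG threshold. Alpha chains (red) spread from -1.19 to 0.77, collagens and chondrocyte markers lie mostly left of the band and adaptors within it.

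Across the 8 samples, the genes most like *Itga10* among 72 partners, ligands and adaptors were *Emilin1* (Pearson r = 0.997), *Ibsp* (0.995) and *Thbs1* (0.995). For *Itga5* they were *Fermt2* (0.990), *Col6a1* (0.986) and *Col6a2* (0.986), and for *Itga3* they were *Kank2* (0.806), *Zyx* (0.762) and *Lamb3* (0.694). These correlations are of log2 CPM over samples of both treatments, so genes that differ between the treatments tend to have a high r, and they are given as a description.

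Counts per gene do not separate splice forms, and the cytoplasmic variants of α3, α6 and α7 were not told apart here.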

How the data were processed

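RNA-Seq of 8 samples of murine articular chondrocytes was used. Per the methods and the labels, the authors used cutadapt to trim reads, STAR to align them to mm10 (GENCODE vM20) and featureCounts to count them. The STAR version is given differently in the methods and in the submitters' processing notes. The authors deposited whole-number counts per gene symbol, with a column of gene lengths in bases (other). Whether the counts precede or follow the RUVseq batch correction of the methods, and whether counting used strand, is not given in the sources used here.

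Samples were grouped by labelled treatment. Counts were scaled by TMM and tested with edgeR 4.0.16 (limma 3.58.1, R 4.3.3), by the quasi-likelihood test with treatment as the only term, over 14404 genes with CPM above 1 in at least 4 samples. All adjusted p-values of genes are edgeR's, by Benjamini-Hochberg over these genes, and SEs refer to the log2 fold change. DEGs had a log2 fold change beyond 1 or -1 and an adjusted p under 0.05. RPKM is CPM per kilobase of the deposited length. Ratios were tested with scipy 1.17.1, and the script was tested on simulated data. Detection limits of 3 counts cover counting error alone, as reads lacking molecular identifiers may be PCR copies.

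Positions, overlaps and 3′ UTRs came from GENCODE vM21 (GRCm38), which matched 54000 of the 54658 symbols, 53178 with the same length. Promoters and the miRNA came from RefSeq (GRCm38.p6). All 10 members were named, with the other integrin chains. Of each list of ligands, adaptors and tetraspanins, the DEGs were named or, with none, the gene with the highest mean CPM. For each class with several members, the 3 genes most correlated with its member of highest RPKM with vehicle were named. Single marker genes of other cell types, and *Col4a1* and *Col4a2* of the collagen list, were named after their values were seen. The members and lists were chosen with earlier results of these data known. Alternatives were DESeq2 1.42.0, other scaling and filters, glmTreat, the replicate number as a block, and each sample left out.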

Additional observations from a re-analysis of the deposited data

Results flagged for a closer look

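In 3 of 32 comparisons of 1 sample with the other 3 of its group, for the members' CPM, the 5 ratios and the total counts, the sample lay beyond Dixon's 95% limit for 4 samples, where chance gives about 1 in 20, or 1.6. *Itga9* was at 10.8 CPM in vehicle replicate 3 and at 8.48 to 8.78 CPM in the other vehicle samples. The log2 ratio of *Itga6* to *Itga3* was -1.31 in IL-1β replicate 3 and -1.08 to -1.06 in the other IL-1β samples. The log2 ratio of *Itga6* to *Itga7* was 3.34 in vehicle replicate 4 and 3.16 to 3.19 in the other vehicle samples.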

How the results depend on the processing

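Over 13 alternative settings, *Itga6*, *Itga7*, *Itga10* and *Itga11* kept a log2 fold change below -1 and an adjusted p under 0.05, the largest value being -1.01, for *Itga11*. *Itga1*, *Itga2*, *Itga5*, *Itga9* and *Itgav* kept their direction and call, and *Itga2*, the least read, had the largest adjusted p, 0.029, and ranged from 0.64 to 0.91. The estimate of *Itga3* ranged from -0.04 to 0.02 and never passed. The glmTreat test, which asks whether a log2 fold change exceeds 1 in size, called 0 members lower, 0 higher and 0 as DEGs, and 437 genes in all. No filter on low counts gave 1206 DEGs among all genes against 751 in the main test, and 2 rising integrin or adhesion DEGs (*Itgb2*, *Itgb7*) in place of 1. With 1 sample left out, that number was 1 to 2, the second being *Lama1* without vehicle replicate 1. Falling integrin or adhesion DEGs were 11 in the main test and 13 without the filter, which added *Emilin1* and *Itgae*. Scaling by total library size gave 12, and leaving 1 sample out gave 11 or 12, *Emilin1* being the gene added. Without IL-1β replicate 2 the ratio of *Itga11* to *Itga10* passed the test (adjusted p = 0.0357), and over the 8 samples left out in turn its difference was 0.040 to 0.145. *Itgb2* and *Lama1* were named after their values were seen. With the replicate block the ratio differences of *Itga10*/*Itga1*, *Itga6*/*Itga3* and *Itga5*/*Itgav* were -0.60, -1.08 and -0.63, each with exact p = 0.125, the smallest that 4 pairs allow. The block gave 5643 genes with an adjusted p under 0.05 against 5796 without it and changed no call of a member. The replicate numbers were not taken as pairs, since the deviations of same-numbered samples correlated at -0.07 to 0.03 and those of the others at -0.07 to 0.08. Depth limits *Itga2* most, at 15 to 42 reads per sample.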
